A study of Homo sapiens with 32 samples.

Results

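The 10 genes described here belong to the tumour necrosis factor (TNF) receptor system and were followed across every condition of the study: the receptors TNFRSF10A, TNFRSF10B, TNFRSF10D, TNFRSF9, TNFRSF12A, TNFRSF21 and TNFRSF1A, and the death-signalling genes FADD, CASP8 and CFLAR. They were taken by gene name, and all 10 are among the 29744 genes of the authors' count table. Both cell lines are human prostate cancer cells: LNCaP, which responds to androgen, and its castration-resistant descendant C4-2B. Each line carried either a control siRNA (siCTRL) or siRNA against MOCOS (siMOCOS), the molybdenum cofactor sulfurase, and was given thapsigargin (TG) or vehicle. This makes 8 groups of 4 libraries: C4-2B siCTRL, C4-2B siCTRL TG, C4-2B siMOCOS, C4-2B siMOCOS TG, and the same 4 in LNCaP. TG blocks the calcium pump of the endoplasmic reticulum (ER) and so causes ER stress; the sources used here give neither its dose nor its duration. The 4 siMOCOS libraries of a group come from 2 different siRNAs, and the table does not show which library holds which, so they were treated as 1 group. The series calls its replicates biological without saying how the cultures were separated, so p-values measure the spread between these libraries only.

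TNF receptors are membrane proteins that bind trimeric ligands of the TNF family. Those with a death domain, which include TNFRSF10A, TNFRSF10B, TNFRSF1A and TNFRSF21, can lead to apoptosis; the receptors for TRAIL recruit the adaptor FADD, which gathers the initiator protease caspase-8 (CASP8), while the inactive caspase-8 homologue c-FLIP (CFLAR) competes for the same platform. TNFRSF10D is a decoy receptor for TRAIL whose death domain is truncated. TNFRSF9 (CD137) is best known as a costimulatory receptor of T cells, and TNFRSF12A (Fn14) is the receptor for TWEAK; both have no death domain and connect to NF-kB through TRAF adaptors. TNFRSF10B is a known target of the ER stress factor CHOP (DDIT3), so the family is often studied in cells under ER stress.

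The promoters of TNFRSF9, the member that was almost absent without TG, and of CFLAR, the inhibitor, are shown because each holds a match to the NF-kB motif, and genes of the NF-kB pathway are described further on. The sequences are from RefSeq (build GRCh38.p14), written 5′ to 3′ on the gene's strand, and are the 250 bases before the start site; capitals mark motif matches.
TNFRSF9, chr1:7940840-7941089, minus strand: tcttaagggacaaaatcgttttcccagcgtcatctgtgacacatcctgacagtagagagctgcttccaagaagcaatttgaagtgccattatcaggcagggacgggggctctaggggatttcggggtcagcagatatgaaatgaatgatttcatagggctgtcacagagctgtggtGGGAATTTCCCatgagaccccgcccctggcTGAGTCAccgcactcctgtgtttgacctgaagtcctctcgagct
CFLAR, chr2:201118466-201118715, plus strand: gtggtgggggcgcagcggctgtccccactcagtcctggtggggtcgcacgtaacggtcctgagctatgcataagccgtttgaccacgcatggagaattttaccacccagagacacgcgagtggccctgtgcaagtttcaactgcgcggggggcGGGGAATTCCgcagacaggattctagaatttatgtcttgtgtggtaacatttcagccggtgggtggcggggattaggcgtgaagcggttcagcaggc
In TNFRSF9 the first capitals are 2 overlapping NF-kB matches, 1 on each strand, that begin 74 and 73 bases before the start site, and the later capitals are an AP-1 match (TGANTCA) that begins 44 bases before it. The capitals in CFLAR are 1 NF-kB match that begins 97 bases before the start site. RefSeq promoters were found for 6 of the 10 genes, and both strands of 300 bases were searched, up to 50 bases past the start site. NF-kB matches occurred in 2 of the 6, against 11.3% of 35116 promoters of the same length, and AP-1 matches in 2 of the 6 (TNFRSF9 and FADD), against 7.71%. None of the 6 held the CRE (TGACGTCA), the UPRE (TGACGTGG), the C/EBP-ATF composite (TGATGNAAT) or the ERSE motif. Such a match says only that these letters occur in the window.

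By position in GRCh38.p14, TNFRSF10A, TNFRSF10B and TNFRSF10D are neighbours on chromosome 8. CFLAR (201116164 to 201176687) and CASP8 (201233463 to 201287711) lie side by side on chromosome 2. TNFRSF9 spans 7915871 to 7940839 on chromosome 1, TNFRSF21 47231532 to 47309905 on chromosome 6, FADD 70203296 to 70207390 on chromosome 11, TNFRSF1A 6328771 to 6342076 on chromosome 12 and TNFRSF12A 3020368 to 3022383 on chromosome 16. All are protein-coding genes. The window shown for CFLAR begins past the gene's annotated start, since the promoter table uses a start site inside the gene. The TRAIL receptor genes are related in sequence, and how the authors' quantification divided reads between them was not tested.

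Library totals ran from 7.51 to 27.1 M counts, with the lowest in LNCaP siMOCOS. MOCOS itself, the siRNA target, was lower in each knockdown group than in its control: 3.42 ± 1.05 against 31.5 ± 2.05 CPM in C4-2B (SD, n = 4) and 3.76 ± 0.299 against 24.3 ± 0.668 CPM in LNCaP without TG. With TG it was 14.8 ± 4.37 against 89.4 ± 2.68 CPM in C4-2B and 14.3 ± 4.11 against 96.1 ± 5.13 CPM in LNCaP. Mean MOCOS was thus higher with TG in control and knockdown cells alike. Of 10 luminal prostate markers, all 10 reached 1 CPM in each of the 8 groups, while in any library basal markers summed to at most 3.70 CPM, immune markers to at most 9.41 CPM, neuroendocrine markers to at most 22.6 CPM and stromal and endothelial markers to at most 26.2 CPM. The summed luminal markers were lower with TG, at 5566 to 6061 CPM in LNCaP siCTRL against 2535 to 2807 CPM in LNCaP siCTRL TG, and at 2752 to 2924 CPM in C4-2B siCTRL against 1666 to 1818 CPM in C4-2B siCTRL TG. The sum of 8 stromal and endothelial markers, of which 2 or 3 reached 1 CPM in a group, was higher with TG, at 13.1 to 20.5 CPM in C4-2B siCTRL TG against 4.87 to 9.95 CPM without TG, and at 12.5 to 16.4 against 6.04 to 7.69 CPM in LNCaP. Basal sums were also higher with TG, at 1.06 to 1.25 against at most 0.0555 CPM in C4-2B siCTRL cells and at 0.818 to 1.03 against 0.112 to 0.648 CPM in LNCaP. Single markers did not all follow the sums. Of the 10 luminal markers, TG called 6 lower in C4-2B siCTRL cells, and 7 lower and 1 higher in LNCaP. Of the stromal and endothelial markers tested, it called 2 higher and 1 lower in C4-2B, and 2 higher in LNCaP. Calls and their shares over all genes are given below. The part of these shifts in the results on TG was not tested. A level in CPM (a count scaled to a library total of 1 M) is a share of its library, and in bulk RNA fewer cells with a transcript and less of it per cell cannot be told apart. Levels are given as mean ± SD over 4 libraries, and changes on the log2 scale as the change ± its standard error (SE).

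TG split the family. In both lines the TRAIL receptor TNFRSF10B, the TNF receptor TNFRSF1A, TNFRSF9 and the protease gene CASP8 rose in siCTRL cells, while the TRAIL receptors TNFRSF10A and TNFRSF10D fell. LNCaP siCTRL cells also raised TNFRSF12A, TNFRSF21 and FADD. CFLAR did not pass in the main edgeR fit of either line, though in LNCaP it did with DESeq2 and with other edgeR settings. A gene was called when its adjusted p (edgeR, Benjamini-Hochberg over all genes tested) was under 0.05. By that rule TG called 6 of the 10 genes in C4-2B siCTRL cells, 4 higher and 2 lower, where 40.5% of 14127 genes were called (21.2% higher, 19.3% lower). In LNCaP siCTRL cells it called 9 of 10, 7 higher and 2 lower, against 49.7% of 13806 genes (24.6% higher, 25.1% lower). The median log2 change of the 10 genes was 0.49 in C4-2B and 0.65 in LNCaP, or 0.34 and 0.59 without TNFRSF9, beside -0.00911 and -0.0379 over all genes. In siMOCOS cells TG called 6 of 10 in C4-2B, 4 higher and 2 lower (37.9% of all genes, 20.7% higher and 17.2% lower), and 9 of 10 in LNCaP, 7 higher and 2 lower (47% of all genes, 25.1% higher and 21.9% lower). Each of these counts includes TNFRSF9 among the higher genes. That gene passed the filter on low counts only through its libraries with TG, so its call does not bear on the comparison with all genes.

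**Figure D1:**
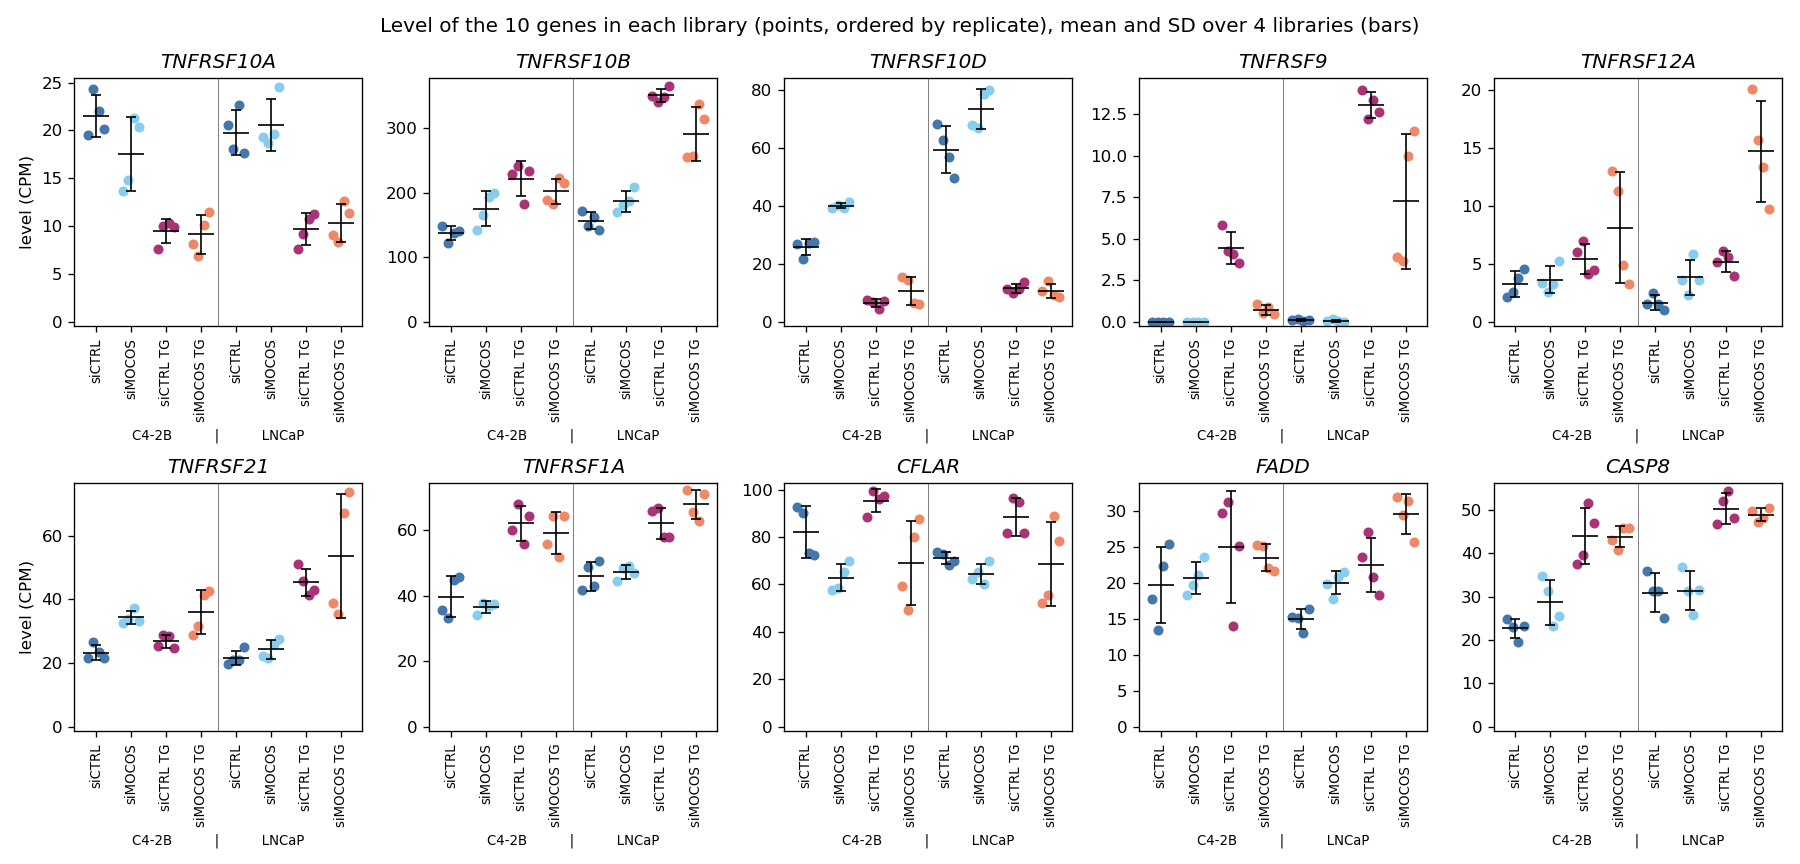
Level of each of the 10 genes in CPM (vertical axis) in the 8 groups (horizontal axis, C4-2B left and LNCaP right of the grey line); points are libraries in the order of their replicate number and black bars are mean and SD (n = 4). TNFRSF10D is at most 15.5 CPM in a library with TG and at least 21.7 CPM in one without it, and TNFRSF9 is at most 0.164 CPM without TG.

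To compare genes with each other, mean CPM was divided by the length of each gene's exons (GENCODE v29 basic), which is approximate because the authors' annotation is not stated. All exons of a gene were joined, which gave 20.6 kb for CFLAR and at most 5.97 kb for any other member. The place of CFLAR in the order therefore depends on this divisor. By CPM alone it had 82.1 in C4-2B siCTRL cells, above TNFRSF1A (39.7) and CASP8 (22.7) and below TNFRSF10B (138). In C4-2B siCTRL cells TNFRSF10B led with 33.2 CPM per kb, above the range of every other member. TNFRSF1A (13.3), FADD (10.7), TNFRSF10A (7.93), TNFRSF10D (7.29), TNFRSF21 (6.48) and CASP8 (5.77) followed, each with a range over libraries that overlapped the next. CFLAR at 3.98 and TNFRSF12A at 2.34 CPM per kb came next without overlap, and TNFRSF9 was at 0. The LNCaP siCTRL order was TNFRSF10B (37.7), then TNFRSF10D (16.7) and TNFRSF1A (15.4), which overlapped, then an overlapping run of FADD (8.1), CASP8 (7.85), TNFRSF10A (7.28) and TNFRSF21 (6.02), then CFLAR (3.45), TNFRSF12A (1.19) and TNFRSF9 (0.0194 CPM per kb). With TG the gap between the TRAIL receptors widened: in LNCaP siCTRL TG cells TNFRSF10B stood at 84.7, TNFRSF10A at 3.57 and TNFRSF10D at 3.25 CPM per kb, and in C4-2B siCTRL TG cells at 53.5, 3.48 and 1.84.

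TNFRSF10B (DR5), a death receptor for TRAIL, was called higher with TG in both lines' siCTRL cells. In C4-2B its levels were 149, 122, 138 and 141 CPM without TG and 229, 242, 182 and 234 CPM with it. In LNCaP they were 172, 148, 163 and 143 CPM without TG and 350.1, 341, 348 and 365 CPM with it. Every TG library was above every library without TG in each line, and the 4 LNCaP TG libraries lay close together. The rise was 1.61-fold in C4-2B (0.69 ± 0.13 in log2, adjusted p = 0.00049) and 2.25-fold in LNCaP (1.17 ± 0.11 in log2, adjusted p = 7.06e-08). The knockdown cells had 142, 165, 194 and 200.4 CPM in C4-2B siMOCOS and 189, 183, 223 and 215 CPM in C4-2B siMOCOS TG, and these groups overlapped. TG in C4-2B knockdown cells was not called (0.24 ± 0.13 in log2, adjusted p = 0.152). In LNCaP the siMOCOS libraries had 169.8, 181, 187 and 209 CPM and the siMOCOS TG libraries 255, 257, 338 and 315 CPM, a 1.61-fold rise (0.69 ± 0.10 in log2, adjusted p = 3.2e-05). Knockdown itself passed in no comparison of the main edgeR fit. With TG, all 4 LNCaP siMOCOS libraries lay below all 4 siCTRL libraries (-0.25 ± 0.10 in log2, adjusted p = 0.096). Leaving out siMOCOS TG replicate 3 made this pass (log2 -0.36, adjusted p = 0.019). Without TG, the C4-2B siMOCOS mean was higher, with overlap (0.34 ± 0.13 in log2, adjusted p = 0.0811). That passed without siMOCOS replicate 1 (adjusted p = 0.034) and with all 32 libraries in 1 fit (0.0278). The interaction (how far the knockdown effect differs once TG is present) was -0.44 in C4-2B (SE 0.18, adjusted p = 0.576) and -0.48 in LNCaP (SE 0.15, adjusted p = 0.415), so the response of knockdown cells was not shown to differ from that of control cells.

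Its paralogue TNFRSF10A (DR4), also a death receptor for TRAIL, went the other way. C4-2B siCTRL libraries fell from 19.5, 24.3, 22.1 and 20.2 CPM to 7.57, 9.98, 10.3 and 9.92 CPM with TG. LNCaP siCTRL libraries fell from 20.6, 18.1, 22.7 and 17.7 CPM to 7.61, 9.14, 10.7 and 11.2 CPM. No library with TG reached the lowest library without it, in either line. The level was 2.28-fold lower in C4-2B (-1.19 ± 0.19 in log2, adjusted p = 8.31e-05) and 2.03-fold lower in LNCaP (-1.02 ± 0.16 in log2, adjusted p = 4.02e-05). Knockdown cells showed the same direction, from 17.5 ± 3.86 to 9.16 ± 2.03 CPM in C4-2B (-0.90 ± 0.19 in log2, adjusted p = 0.000965), and in LNCaP from 20.6 ± 2.71 to 10.3 ± 1.96 CPM (-0.94 ± 0.16 in log2, adjusted p = 9.56e-05).

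The decoy receptor gene TNFRSF10D had the largest fall of the 10 genes in each of the 4 comparisons with TG. C4-2B siCTRL libraries went from 26.9, 21.7, 27 and 27.6 CPM to 7.52, 6.69, 4.49 and 7.29 CPM, 3.98-fold lower (-1.99 ± 0.26 in log2, adjusted p = 1.37e-05). LNCaP siCTRL libraries went from 68.3, 62.5, 56.9 and 49.4 CPM to 11.3, 9.98, 11.2 and 13.5 CPM, 5.15-fold lower (-2.36 ± 0.16 in log2, adjusted p = 1.69e-09). Neither line's groups overlapped, and LNCaP stayed the higher line with TG. The level without TG was 2.3-fold higher in LNCaP siCTRL than in C4-2B siCTRL cells (1.20 ± 0.21 in log2, adjusted p = 3.36e-05). In knockdown cells of C4-2B the libraries had 39.3, 40.2, 39.2 and 41.2 CPM without TG and 15.5, 14.3, 6.52 and 6.15 CPM with TG (-1.88 ± 0.26 in log2, adjusted p = 2e-05). LNCaP knockdown libraries had 67.9, 66.9, 78.5 and 79.7 CPM without TG and 10.6, 14, 9.37 and 8.5 CPM with it (-2.73 ± 0.16 in log2, adjusted p = 3.11e-10). All 4 C4-2B siMOCOS libraries without TG were above all 4 siCTRL libraries, yet the knockdown difference was not called (0.62 ± 0.25 in log2, adjusted p = 0.0945). With TG the C4-2B knockdown difference was not called either (0.73 ± 0.26 in log2, adjusted p = 0.0591); it passed without siMOCOS TG replicate 3 (log2 0.92, adjusted p = 0.0155) or replicate 4 (log2 0.93, adjusted p = 0.0124), the libraries at 6.52 and 6.15 CPM, and with DESeq2 (adjusted p = 0.0295) or in the fit of all 32 libraries (0.02). The difference without TG passed in the latter fit too (adjusted p = 0.0282).

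TNFRSF9, the costimulatory receptor, was absent or nearly so until TG was given. In C4-2B all 4 siCTRL and all 4 siMOCOS libraries without TG had 0 counts. With TG the siCTRL libraries had 5.84, 4.27, 4.1 and 3.57 CPM, from 82.7 to 99.0 counts each, and the siMOCOS libraries had 1.05, 0.501, 0.895 and 0.438 CPM, from 10.4 to 20.1 counts each. No fold against 0 can be given, so a floor of 3 counts over the group was used: the level was at least 87.7-fold higher with TG in siCTRL cells (adjusted p = 1.32e-06) and at least 18.7-fold higher in knockdown cells (adjusted p = 4.51e-05). In LNCaP the siCTRL libraries had 0.116, 0.164, 0.0578 and 0.126 CPM without TG, which is at most 2.72 counts, and 14, 12.2, 13.4 and 12.6 CPM with it. The siMOCOS libraries of LNCaP had 0.049, 0.154, 0.0678 and 0 CPM without TG and 3.88, 3.67, 10 and 11.5 CPM with it. The rise with TG was called in LNCaP siCTRL cells (6.65 ± 0.48 in log2, adjusted p = 4.8e-09) and in LNCaP knockdown cells (6.27 ± 0.55 in log2, adjusted p = 4.09e-08), and the size of both rests on the few counts without TG. In both lines the gene passed the filter on low counts only through its libraries with TG.

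Knockdown lowered TNFRSF9 in TG-treated C4-2B cells. The mean went from 4.45 ± 0.978 CPM in siCTRL TG to 0.722 ± 0.30 CPM in siMOCOS TG (SD, n = 4), with no overlap, and was 6.14-fold lower (-2.62 ± 0.34 in log2, adjusted p = 0.000229). In LNCaP all 4 siMOCOS TG libraries were also below all 4 siCTRL TG libraries but unevenly, with libraries 1 and 2 far below libraries 3 and 4. That difference did not pass (-0.83 ± 0.29 in log2, adjusted p = 0.0502). It passed without siMOCOS TG replicate 3 (log2 -1.05, adjusted p = 0.0215) or replicate 4 (log2 -1.17, adjusted p = 0.00885), and with all libraries by DESeq2 (adjusted p = 0.0443), edgeR with DESeq2 size factors (0.0454), limma voom (0.00973) and edgeR with no filter (0.0493). The adjusted p over all alternatives that leave out 1 library ran from 0.00885 to 0.13. The knockdown effects of the 2 lines with TG differed by 1.79 on the log2 scale, LNCaP minus C4-2B, which was not called (SE 0.46, adjusted p = 0.0751). Because C4-2B had no counts without TG, the interaction for this gene has no usable size there.

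TNFRSF12A, the TWEAK receptor, was scarce without TG and highest in knockdown cells with TG. In LNCaP its levels were 1.51, 2.5, 1.56 and 1.03 CPM in siCTRL and 5.17, 6.06, 5.58 and 3.93 CPM in siCTRL TG. They were 3.58, 2.3, 5.85 and 3.56 CPM in siMOCOS and 20.02, 15.7, 13.4 and 9.67 CPM in siMOCOS TG. Within each siRNA every TG library exceeded every library without TG, and every siMOCOS TG library exceeded every siCTRL TG library. TG raised it 3.07-fold in siCTRL cells (1.62 ± 0.31 in log2, adjusted p = 0.000278) and 4.0-fold in knockdown cells (2.00 ± 0.29 in log2, adjusted p = 1.61e-05). Knockdown with TG raised it 2.88-fold (1.53 ± 0.27 in log2, adjusted p = 0.000728), a call that held whichever library was left out. Knockdown without TG was called although siMOCOS replicate 2 lay below siCTRL replicate 2 (1.14 ± 0.32 in log2, adjusted p = 0.0215), and this call was lost without siCTRL replicate 1 (adjusted p = 0.0601), siCTRL replicate 3 (0.052), siCTRL replicate 4 (0.0696) or siMOCOS replicate 3 (0.0888). The interaction estimate lay within 1 SE of 0.

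The same gene varied more in C4-2B. Its libraries had 2.14, 2.57, 3.78 and 4.56 CPM in siCTRL and 5.97, 6.92, 4.15 and 4.48 CPM in siCTRL TG, which overlapped (0.72 ± 0.39 in log2, adjusted p = 0.144). The siMOCOS libraries had 3.37, 2.59, 3.27 and 5.27 CPM and the siMOCOS TG libraries 13, 11.3, 4.91 and 3.23 CPM. In the last group libraries 1 and 2 were the highest of the line, library 3 lay within the siCTRL TG range, and library 4 lay below it. TG in knockdown cells was called (1.19 ± 0.38 in log2, adjusted p = 0.0197), but not without siMOCOS TG replicate 1 (0.0947 as the adjusted p), siMOCOS TG replicate 2 (0.0671) or siMOCOS replicate 2 (0.0558). Knockdown was not called without TG, where the estimate lay within 1 SE of 0, or with it (0.61 ± 0.37 in log2, adjusted p = 0.287).

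TNFRSF21 (DR6), a death-domain receptor best known from the nervous system, responded to TG in LNCaP. Its siCTRL libraries had 19.8, 20.9, 20.9 and 25 CPM without TG and 51, 45.8, 41.3 and 43 CPM with it, a 2.1-fold rise with no overlap (1.07 ± 0.20 in log2, adjusted p = 0.000212). C4-2B siCTRL libraries had 21.5, 26.6, 23.4 and 21.6 CPM without TG and 25.2, 28.7, 28.5 and 24.6 CPM with it, and the groups overlapped (0.20 ± 0.14 in log2, adjusted p = 0.267). The response of LNCaP minus that of C4-2B was 0.86 (SE 0.24), which edgeR did not call (adjusted p = 0.0996) and DESeq2 did (log2 0.91, adjusted p = 0.0294). In C4-2B it was knockdown that raised the gene: the siMOCOS libraries had 32.7, 33.9, 37.3 and 33.3 CPM, all above siCTRL, 1.46-fold (0.55 ± 0.14 in log2, adjusted p = 0.0107). C4-2B siMOCOS TG libraries had 28.7, 31.5, 41.4 and 42.5 CPM, where libraries 3 and 4 were well above the siCTRL TG range and library 1 was at its upper end (0.45 ± 0.14 in log2, adjusted p = 0.0304). This call was lost without siCTRL TG replicate 1 (adjusted p = 0.0774), siCTRL TG replicate 4 (0.0853), siMOCOS TG replicate 3 (0.0695) or siMOCOS TG replicate 4 (0.0846). LNCaP knockdown cells had 22.2, 21.4, 26 and 27.6 CPM without TG and 38.7, 35.3, 67.1 and 73.7 CPM with it, and knockdown was called in neither state (within 1 SE of 0 without TG, and 0.27 ± 0.19 in log2, adjusted p = 0.326 with TG).

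TNFRSF1A, the main receptor for TNF itself, rose in all 4 comparisons with TG. C4-2B siCTRL libraries ran from 33.1 to 45.7 CPM without TG and from 55.7 to 68 CPM with it (0.64 ± 0.13 in log2, adjusted p = 0.000841). LNCaP siCTRL libraries ran from 41.6 to 50.6 CPM without TG and from 57.9 to 66.7 CPM with it (0.44 ± 0.09 in log2, adjusted p = 0.000879). In each case the groups did not overlap. The gene also rose in knockdown cells of C4-2B (0.73 ± 0.13 in log2, adjusted p = 0.000276) and LNCaP (0.57 ± 0.09 in log2, adjusted p = 7.66e-05). Knockdown was called in no comparison for this gene.

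Downstream of the receptors, CASP8, the initiator caspase, rose with TG in every comparison. C4-2B siCTRL libraries had 24.8, 23.1, 19.6 and 23.3 CPM without TG and 37.6, 39.6, 51.7 and 47.1 CPM with it, a 1.93-fold rise (0.95 ± 0.14 in log2, adjusted p = 5.84e-05). LNCaP siCTRL libraries had 36, 31.3, 31.3 and 25 CPM without TG and 46.8, 52, 54.4 and 48.1 CPM with it, a 1.63-fold rise (0.70 ± 0.12 in log2, adjusted p = 6.99e-05). No TG library overlapped a library without TG. Knockdown cells had a mean of 43.9 ± 2.47 CPM with TG in C4-2B and 48.9 ± 1.47 CPM in LNCaP, close to the siCTRL TG means of 44 and 50.3 CPM, and both knockdown estimates with TG lay within 1 SE of 0. Without TG, LNCaP siCTRL cells had 1.36-fold more CASP8 than C4-2B siCTRL cells (0.45 ± 0.13 in log2, adjusted p = 0.0065); leaving out C4-2B siCTRL replicate 3 took this to log2 0.35, adjusted p = 0.0518.

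CFLAR, the inhibitor of CASP8, did not pass in any comparison within a line in the main edgeR fit. It came close in several and passed with other tools or other edgeR settings. C4-2B siCTRL libraries had 92.7, 90.3, 73.2 and 72.3 CPM without TG and 88.5, 99.4, 96.2 and 97.4 CPM with it, which overlapped (0.21 ± 0.16 in log2, adjusted p = 0.294). LNCaP siCTRL libraries had 73.5, 73, 68.2 and 69.9 CPM without TG and 81.7, 96.5, 94.6 and 81.7 CPM with it, where all TG libraries were higher (0.32 ± 0.14 in log2, adjusted p = 0.0635). Leaving out LNCaP siCTRL TG replicate 1 (log2 0.41, adjusted p = 0.0375) or replicate 4 (log2 0.40, adjusted p = 0.0371) brought that change past the threshold, and so did DESeq2 (adjusted p = 0.0413), edgeR with DESeq2 size factors (0.0479) and edgeR with no filter on low counts (0.0448). In edgeR fits of the siCTRL libraries alone, the change passed with a replicate block (adjusted p = 0.00351). It also passed there without the block (adjusted p = 0.00156), a setting chosen after seeing the data. Means were lower in knockdown cells: C4-2B siMOCOS libraries had 57.6, 58.6, 65.3 and 69.9 CPM, all below siCTRL (-0.40 ± 0.16 in log2, adjusted p = 0.0926), and C4-2B siMOCOS TG libraries had 59.5, 49.4, 80.1 and 87.6 CPM, all below siCTRL TG (-0.44 ± 0.16 in log2, adjusted p = 0.0635). The latter passed without siMOCOS TG replicate 4 (log2 -0.57, adjusted p = 0.0189), the library nearest the controls, and with all libraries by DESeq2 (adjusted p = 0.0411), limma voom (0.0435) and the fit of all 32 libraries (0.0245). In LNCaP the siMOCOS libraries had 62.3, 65.1, 60.1 and 69.8 CPM (-0.17 ± 0.14 in log2, adjusted p = 0.439) and the siMOCOS TG libraries 52.3, 55.6, 88.9 and 78.5 CPM (-0.34 ± 0.14 in log2, adjusted p = 0.0829). LNCaP siMOCOS TG libraries 1 and 2 were below every other LNCaP library, library 3 lay within the siCTRL TG range and library 4 just below it; without replicate 3 or replicate 4 of that group the difference passed (log2 -0.52, adjusted p = 0.00735, and log2 -0.44, adjusted p = 0.0407). It also passed with limma voom (adjusted p = 0.0487).

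FADD, the adaptor between receptor and caspase, rose with TG in LNCaP. The siCTRL libraries there had 15.2, 15.2, 13 and 16.3 CPM without TG and 23.5, 27.1, 20.8 and 18.3 CPM with it, a 1.51-fold rise with no overlap (0.59 ± 0.13 in log2, adjusted p = 0.00105). Knockdown cells of LNCaP had 19.8, 17.8, 20.9 and 21.4 CPM without TG and 31.8, 29.4, 31.3 and 25.7 CPM with it (0.62 ± 0.13 in log2, adjusted p = 0.000732). Knockdown raised FADD in LNCaP by a small amount, 1.32-fold without TG (0.40 ± 0.13 in log2, adjusted p = 0.0499) and 1.34-fold with TG (0.42 ± 0.13 in log2, adjusted p = 0.0254). The former was lost whichever of the 8 libraries was left out, with adjusted p from 0.0537 to 0.135. The latter was lost without siCTRL TG replicate 3 (adjusted p = 0.0922) or replicate 4 (0.103), and without siMOCOS TG replicate 1 (0.0892), replicate 2 (0.059) or replicate 3 (0.0587). C4-2B siCTRL libraries had 17.7, 13.5, 22.3 and 25.4 CPM without TG and 29.7, 31.2, 14 and 25.1 CPM with it, a wide and overlapping spread (0.34 ± 0.22 in log2, adjusted p = 0.229). The low library there, siCTRL TG replicate 3, decided that result: without it the change was log2 0.53, adjusted p = 0.029. Over all genes this library was also the least like its group. Its Pearson r of log2 CPM with the other libraries was 0.977 to 0.979, against 0.986 to 0.989 among those. In C4-2B the knockdown estimates for FADD lay within 1 SE of 0.

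**Figure D2:**
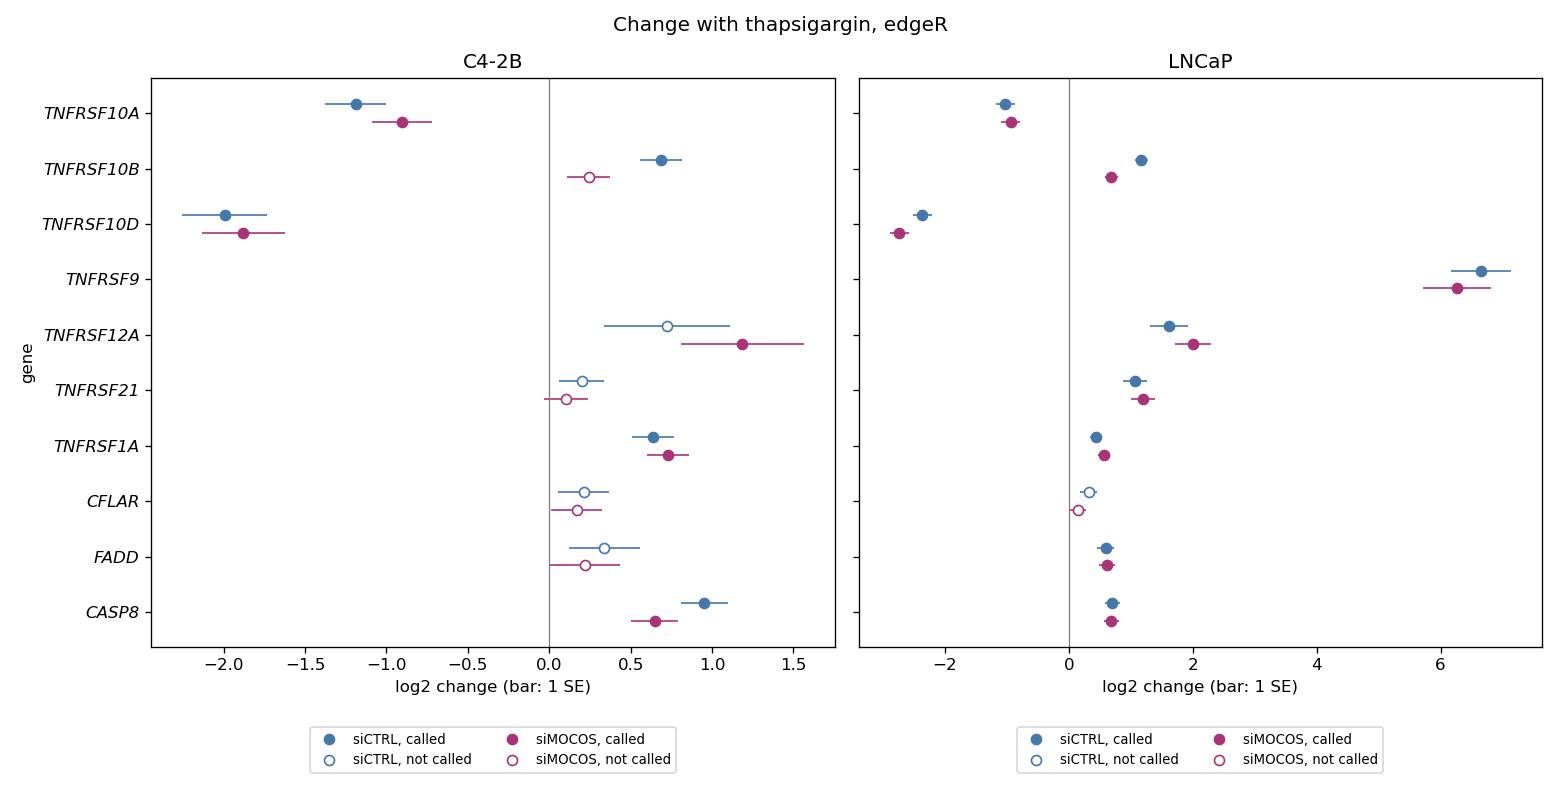
Change of each gene with TG on the log2 scale (horizontal axis; bars are 1 SE) in siCTRL and siMOCOS cells of C4-2B (left) and LNCaP (right), from edgeR; filled points are called. TNFRSF10A and TNFRSF10D lie left of 0 in all 4 series, and TNFRSF9 is not drawn for C4-2B because its libraries without TG are all at 0.

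Set against TG, knockdown moved few of these genes. Without TG it called 1 of 10 in C4-2B (TNFRSF21, higher), where 17.2% of all genes were called (9.09% higher, 8.14% lower), and 2 of 10 in LNCaP (TNFRSF12A and FADD, both higher), where 15.7% were (6% higher, 9.73% lower). With TG it called 2 of 10 in C4-2B (TNFRSF21 higher, TNFRSF9 lower), against 16.8% (9.21% higher, 7.6% lower), and 2 of 10 in LNCaP (TNFRSF12A and FADD higher), against 21.9% (11.7% higher, 10.2% lower). These shares are near those of all genes. The median log2 change of the 10 genes was 0.11 in C4-2B and 0.09 in LNCaP without TG, and -0.03 and 0.05 with it. No gene of the 10 was called in the interaction of knockdown and TG, where edgeR called 0.0708% of all genes in C4-2B and 0.00724% in LNCaP; at an unadjusted p under 0.05 each line had 1 member, TNFRSF10B, and DESeq2 called 0. TNFRSF9 is counted among the 10 but could not be called for C4-2B knockdown without TG or for the C4-2B interaction. All C4-2B libraries without TG had 0 counts of it. The comparisons share groups: siCTRL TG, for example, enters both the TG response and knockdown with TG.

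**Figure D3:**
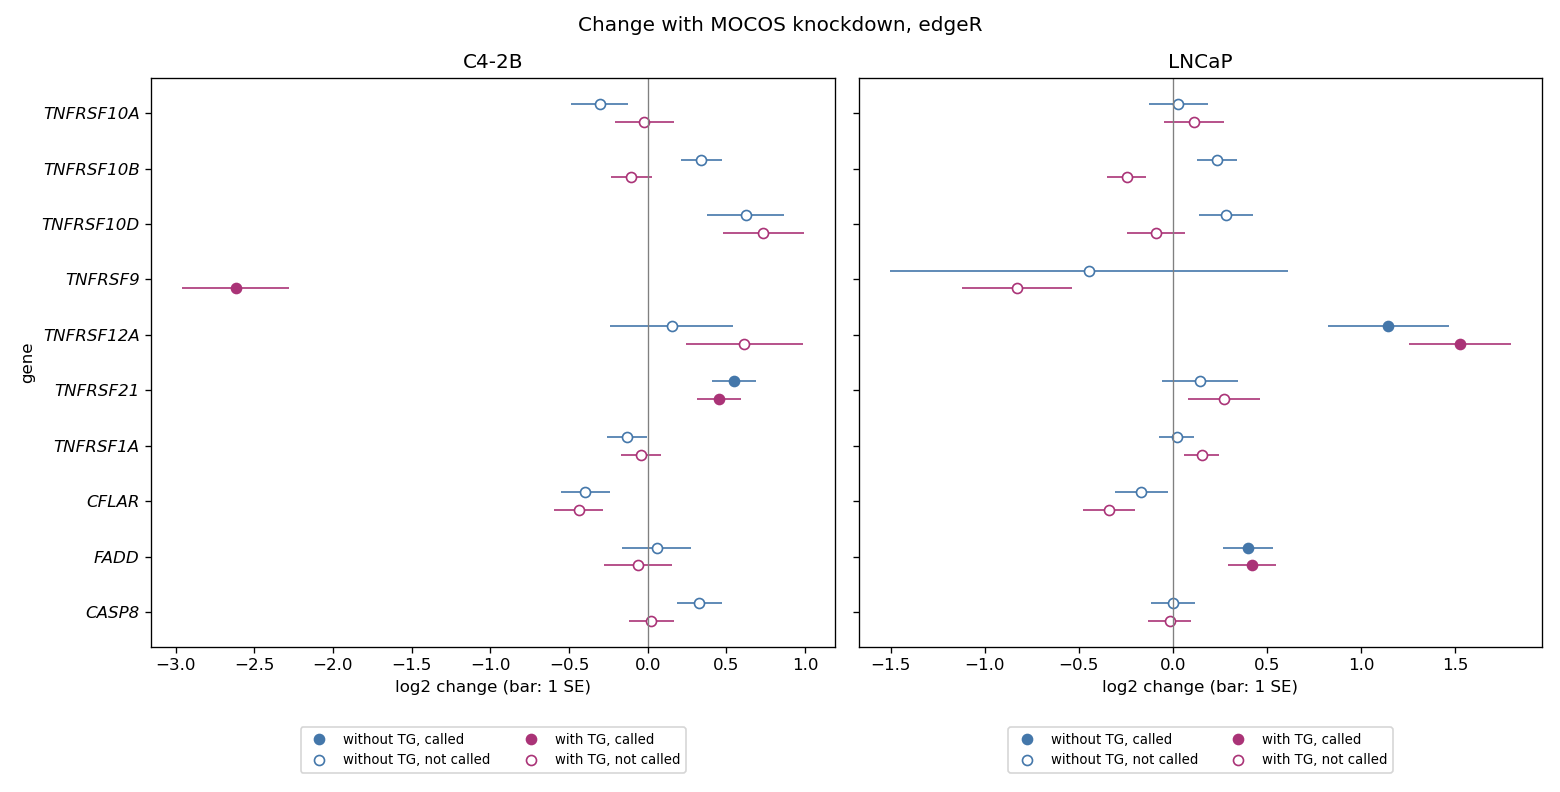
Change of each gene with MOCOS knockdown on the log2 scale (horizontal axis; bars are 1 SE), without and with TG, in C4-2B (left) and LNCaP (right), from edgeR; filled points are called. TNFRSF9 without TG is not drawn for C4-2B (all libraries at 0), and its long bar without TG in LNCaP reflects fewer than 3 counts per library.

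In all 4 knockdown groups the libraries stood in pairs. Over all genes, the Pearson r of log2 CPM between libraries 1 and 2, or 3 and 4, was 0.981 to 0.992 in these groups, and across the pairs it was 0.962 to 0.978; in the siCTRL groups the corresponding ranges were 0.977 to 0.990 and 0.975 to 0.988. In LNCaP siMOCOS TG, libraries 1 and 2 were lower than libraries 3 and 4 for TNFRSF9, TNFRSF21, CFLAR, TNFRSF10A and TNFRSF10B, and higher for TNFRSF12A and TNFRSF10D. In C4-2B siMOCOS TG, libraries 1 and 2 were lower for CFLAR, CASP8, TNFRSF21, TNFRSF10A and TNFRSF10B, and higher for TNFRSF12A, TNFRSF10D and FADD. CASP8 showed no such split in LNCaP, at 49.8, 47.3, 48.1 and 50.5 CPM. Without TG, libraries 1 and 2 of C4-2B siMOCOS were lower for TNFRSF10A, TNFRSF10B, CFLAR and FADD and higher for CASP8, and those of LNCaP siMOCOS were lower for TNFRSF10A, TNFRSF10B, TNFRSF10D, TNFRSF21 and FADD. The number of the 10 genes split this way was 8 and 7 in the C4-2B and LNCaP siMOCOS TG groups, 5 in each siMOCOS group without TG, and 2 to 5 in the siCTRL groups. These orders are given as values with no test; the groups hold 2 libraries of each siRNA, but no library can be assigned to an siRNA here.

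Between the lines, 3 of the 10 genes were called in siCTRL cells without TG, all higher in LNCaP (41.2% of all genes were called, 21.1% higher and 20.1% lower in LNCaP): TNFRSF10D and CASP8, given above, and TNFRSF9, which had at most 2.72 counts in an LNCaP library and 0 in C4-2B. TNFRSF9 passed the filter on low counts only through its libraries with TG. Its line call rests on these few counts and was not made by limma voom (adjusted p = 0.0723). TNFRSF12A was lower in LNCaP and just short of the threshold (-0.95 ± 0.39 in log2, adjusted p = 0.0502); it passed without C4-2B siCTRL replicate 1 (adjusted p = 0.0301), C4-2B siCTRL replicate 2 (0.0479) or LNCaP siCTRL replicate 2 (0.0236). FADD, lower in LNCaP but not called (-0.41 ± 0.18 in log2, adjusted p = 0.0795), passed without C4-2B siCTRL replicate 2 (log2 -0.55, adjusted p = 0.0187). No gene of the 10 had a TG response that differed between the lines by edgeR, where 0.848% of all genes did. At an unadjusted p under 0.05 there were 2 members, TNFRSF10B and TNFRSF21, and DESeq2 called 1. The TNFRSF10B response was larger in LNCaP, but not past the threshold (0.48 ± 0.16 in log2, adjusted p = 0.218). For the knockdown response the count was also 0, both without TG (0.157% of all genes) and with TG (0.431%). TNFRSF9 could not be called for the former, because its C4-2B libraries without TG were all at 0. At an unadjusted p under 0.05 there were 0 members without TG and 2 with it, TNFRSF10D and TNFRSF9; DESeq2 called 0 and 1.

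For this and the following lists, the shares of all genes called are those given above. With TG in siCTRL cells they were 21.2% higher and 19.3% lower in C4-2B, and 24.6% and 25.1% in LNCaP. With knockdown and TG they were 9.21% higher and 7.6% lower in C4-2B, and 11.7% and 10.2% in LNCaP. With knockdown and no TG they were 9.09% higher and 8.14% lower in C4-2B, and 6% and 9.73% in LNCaP. Among 22 other TNF receptors, 7 had enough counts to be tested in each line. TG called 1 higher and 1 lower in siCTRL cells of each line, and they were FAS and TNFRSF19 in both. FAS, the receptor for FAS ligand, rose from 4.26 ± 0.516 to 9.06 ± 1.51 CPM in C4-2B (1.09 ± 0.30 in log2, adjusted p = 0.00795), and in LNCaP from 12.4 ± 1.82 to 41.1 ± 2.81 CPM (1.74 ± 0.16 in log2, adjusted p = 8.14e-08). TNFRSF19 (TROY) fell from 189 ± 41.7 to 70.3 ± 15.1 CPM in C4-2B (-1.43 ± 0.20 in log2, adjusted p = 2.39e-05), and in LNCaP from 39.8 ± 5.35 to 12.6 ± 2.35 CPM (-1.65 ± 0.24 in log2, adjusted p = 1.66e-05). TNFRSF10C, another TRAIL decoy receptor, was the one receptor of this list called with knockdown and TG in both lines: 0.257 to 1.03 CPM in C4-2B (2.01 ± 0.50 in log2, adjusted p = 0.00852) and 1.58 to 2.8 CPM in LNCaP (0.87 ± 0.26 in log2, adjusted p = 0.0227). Its C4-2B siCTRL TG mean was too low to pass the filter on low counts by itself, so that change rests on few counts. The list's median log2 change with TG was -0.32 in C4-2B and -0.29 in LNCaP.

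Ligands were mostly scarce. Of 18 TNF ligands, 6 were tested in C4-2B and 7 in LNCaP. The ligand of TNFRSF10A, TNFRSF10B and TNFRSF10D is TRAIL (TNFSF10), whose mean was at most 0.247 CPM in any C4-2B group and at most 2.54 CPM in any LNCaP group. TNFSF9, the ligand of TNFRSF9, had a mean of at most 0.909 CPM in any group, and FASLG was at 0 in all of them. TNFSF12, the TWEAK ligand of TNFRSF12A, did not exceed a mean of 0.0527 CPM, and TNF itself did not exceed 0.856 CPM. TG called 3 ligands higher and 2 lower in C4-2B siCTRL cells; in LNCaP it was 2 higher and 1 lower, with list medians of 0.44 and 0.35. TNFSF15, the TL1A ligand, rose from 13.2 ± 3.88 to 47 ± 18.3 CPM in C4-2B (1.83 ± 0.25 in log2, adjusted p = 1.88e-05), and in LNCaP from 42.4 ± 4.7 to 124 ± 6.51 CPM (1.55 ± 0.20 in log2, adjusted p = 6.07e-06). TNFSF18, the GITR ligand, went from 0.0135 to 2.05 CPM in C4-2B (adjusted p = 8.74e-06). Its LNCaP means were 0.0656 and 7.01 CPM (adjusted p = 8.93e-09). The siCTRL libraries without TG were too low to pass the filter on low counts. The gene was thus tested only through libraries of other groups, and the size of its rise rests on few counts. Knockdown with TG lowered TNFSF18 in both lines, by 1.47 on the log2 scale in C4-2B (SE 0.45, adjusted p = 0.0313) and by 1.55 in LNCaP (SE 0.30, adjusted p = 0.00153).

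Receptor adaptors and ubiquitin ligases, which pass the signal on from the receptor's tail, had 17 of 18 measured genes tested in C4-2B and 18 in LNCaP. TG called 5 higher and 2 lower in C4-2B siCTRL cells (median 0.23) and 9 higher and 1 lower in LNCaP (median 0.29). BIRC3, the inhibitor of apoptosis protein cIAP2, rose from 6.09 ± 1.2 to 37.7 ± 6.41 CPM in C4-2B (2.62 ± 0.23 in log2, adjusted p = 2.25e-07). TNFAIP3 (A20), which edits ubiquitin and limits NF-kB, rose from 2.44 ± 0.805 to 12.6 ± 4.03 CPM in C4-2B (2.39 ± 0.28 in log2, adjusted p = 3.88e-06), and in LNCaP from 4.84 ± 1.47 to 44.3 ± 5.82 CPM (3.21 ± 0.28 in log2, adjusted p = 5.82e-08). BIRC2 (cIAP1) rose in both, to 80.6 ± 4.63 CPM in C4-2B (0.94 ± 0.15 in log2, adjusted p = 8.81e-05) and 125 ± 7.03 CPM in LNCaP (1.29 ± 0.11 in log2, adjusted p = 2.97e-08). Knockdown with TG called 2 higher and 3 lower in C4-2B, the lower ones including TNFAIP3 (-1.40 ± 0.26 in log2, adjusted p = 0.000953) and BIRC3 (-0.82 ± 0.21 in log2, adjusted p = 0.012). In LNCaP it called 1 higher, SHARPIN (0.85 ± 0.26 in log2, adjusted p = 0.0274), and 1 lower, BIRC2 (-0.31 ± 0.11 in log2, adjusted p = 0.0415).

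Caspases and death effectors outside the 10 genes carry the signal on from caspase-8. Of 13 tested, TG called 2 lower in C4-2B siCTRL cells and 2 lower in LNCaP siCTRL cells, with medians of 0.11 and 0.13. BID, which links caspase-8 to mitochondria, fell from 3.66 ± 0.851 to 1.7 ± 0.483 CPM in C4-2B (-1.13 ± 0.29 in log2, adjusted p = 0.00518), and in LNCaP from 4.45 ± 0.982 to 1.7 ± 0.25 CPM (-1.36 ± 0.22 in log2, adjusted p = 7.01e-05). CASP2 fell in both (-0.80 ± 0.16 in log2, adjusted p = 0.000669 in C4-2B, -0.75 ± 0.12 in log2, adjusted p = 4.43e-05 in LNCaP). The caspase inhibitor XIAP rose in LNCaP (0.64 ± 0.11 in log2, adjusted p = 7.57e-05). Knockdown called 1 gene of this list lower in LNCaP in each state, CASP2 without TG (-0.40 ± 0.12 in log2, adjusted p = 0.0305) and CASP10 with TG (-1.01 ± 0.35 in log2, adjusted p = 0.0494).

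NF-kB is the transcription factor that many of these receptors activate. Of its 13 subunit, kinase and inhibitor genes, all tested, TG called 7 higher in C4-2B siCTRL cells (median 0.59) and 8 higher and 1 lower in LNCaP (median 1.15). RELB, a subunit of the noncanonical pathway, went from 0.201 to 6.0 CPM in C4-2B (4.86 ± 0.52 in log2, adjusted p = 1.68e-06). In LNCaP its means were 0.427 and 7.0 CPM (3.98 ± 0.36 in log2, adjusted p = 7.49e-08). At these siCTRL means without TG, RELB was tested only through libraries of other groups, and the size of its rise rests on few counts. Its partner NFKB2 rose from 15.2 ± 1.78 to 52.3 ± 4.33 CPM in C4-2B (1.78 ± 0.15 in log2, adjusted p = 2.01e-07), and in LNCaP from 23.3 ± 2.98 to 85.6 ± 5.31 CPM (1.88 ± 0.16 in log2, adjusted p = 3.9e-08). Knockdown without TG called 3 lower in C4-2B, MAP3K14 (-0.99 ± 0.22 in log2, adjusted p = 0.00447), REL (-0.94 ± 0.24 in log2, adjusted p = 0.0121) and CHUK (-0.70 ± 0.21 in log2, adjusted p = 0.0266), and 1 lower in LNCaP, CHUK (-0.84 ± 0.22 in log2, adjusted p = 0.0134), with list medians of -0.10 and -0.00721. With TG it called 8 lower in C4-2B (median -0.81, beside 0.0136 over all genes), led by NFKB2, at 24.1 ± 4.32 CPM (-1.09 ± 0.15 in log2, adjusted p = 4.78e-05), MAP3K14, the kinase NIK of the noncanonical pathway, at 8.13 ± 2.35 against 24.1 ± 2.6 CPM (-1.53 ± 0.22 in log2, adjusted p = 7.26e-05), and IKBKB (-0.72 ± 0.13 in log2, adjusted p = 0.000644). In LNCaP it called 2 higher and 2 lower (median -0.17): CHUK (-1.03 ± 0.21 in log2, adjusted p = 0.00215) was lower, and RELA (0.53 ± 0.13 in log2, adjusted p = 0.00737) and IKBKG (0.55 ± 0.18 in log2, adjusted p = 0.0329) were higher. The knockdown response with TG differed between the lines, LNCaP minus C4-2B, for 2 of the 13, MAP3K14 (1.51, SE 0.31, adjusted p = 0.0302) and NFKB2 (0.93, SE 0.21, adjusted p = 0.0419). Over all genes 0.431% were called in that comparison. Of 9 measured cytokine and adhesion genes that NF-kB is known to drive, only 3 were tested in C4-2B and 4 in LNCaP; TG called 1 lower in C4-2B, while LNCaP had 2 of each.

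**Figure D4:**
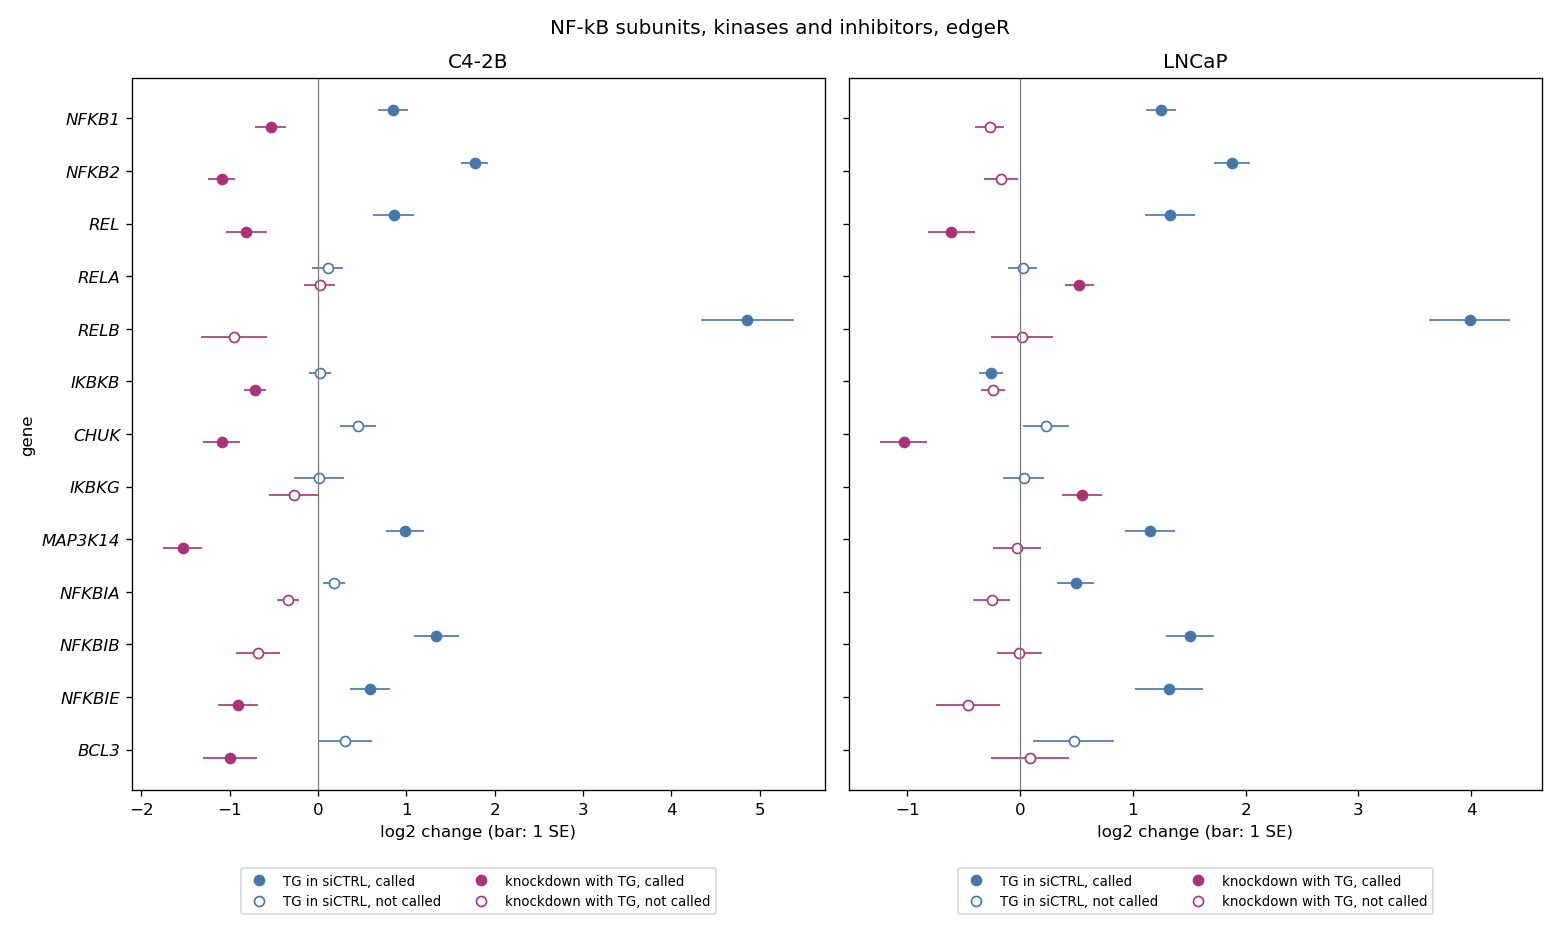
Change of the 13 NF-kB genes on the log2 scale (horizontal axis; bars are 1 SE) with TG in siCTRL cells and with knockdown in TG-treated cells, in C4-2B (left) and LNCaP (right), from edgeR; filled points are called. Both series use the siCTRL TG libraries, so they are not independent; in C4-2B 8 of the 13 knockdown points are called and lie left of 0.

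The stress pathway that leads to CHOP rose with TG. All 10 PERK-ATF4-CHOP genes were called higher with TG in each of the 4 comparisons, with medians of 2.01 in C4-2B siCTRL and 2.48 in LNCaP siCTRL cells. DDIT3, which encodes CHOP, went from 29 ± 1.89 to 286 ± 25.9 CPM in LNCaP siCTRL cells (3.31 ± 0.19 in log2, adjusted p = 3.02e-10). Knockdown without TG called 5 of the 10 lower in C4-2B (median -0.62), led by TRIB3 (-0.95 ± 0.14 in log2, adjusted p = 0.000137), CHAC1 (-2.09 ± 0.34 in log2, adjusted p = 0.000269) and CEBPB (-0.63 ± 0.17 in log2, adjusted p = 0.0163). In LNCaP it called 2 lower (median -0.26), ASNS (-0.86 ± 0.08 in log2, adjusted p = 3.26e-06) and TRIB3 (-0.67 ± 0.13 in log2, adjusted p = 0.00193). With TG, edgeR called 0 of the 10 for knockdown in C4-2B (median -0.34; 2 at an unadjusted p under 0.05) and 1 lower in LNCaP, ASNS (-0.40 ± 0.08 in log2, adjusted p = 0.00236). Of 12 p53 target genes, a pathway that is also known to drive TNFRSF10B, TG called 3 higher in C4-2B siCTRL cells (median 0.12), where 21.2% of all genes were called higher. In LNCaP it called 6 higher and 2 lower (median 0.73), beside 24.6% higher and 25.1% lower of all genes. A link of these genes to TNFRSF10B was not tested.

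By pattern over the 32 libraries (Pearson r of log2 CPM, as a description with no test, and with the conditions shared by all genes), TNFRSF9 was most like FBXO42 (r = 0.975), SCYL3 (0.972) and FLRT1 (0.971). TNFRSF10B was most like CLUHP3 (r = 0.919), NBPF11 (0.918) and LINC00843 (0.911). For CFLAR the nearest were ZFP91 (r = 0.912), YES1 (0.885) and CCDC15 (0.885), and for CASP8 LRRFIP2 (r = 0.945), VAV3 (0.944) and NBPF11 (0.939).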

How the data were processed

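Polyadenylated RNA of 32 strand-specific libraries was measured. The authors deposited expected counts per gene (estimated counts, length-scaled per the name of the table). The submitters' processing notes list Salmon 1.5.2, STAR 2.6.1d, FastQC 0.11.9, cutadapt 3.4, Trim Galore 0.6.7 and hg38, with no roles given; the gene annotation is not given in the sources used here. All 32 columns were used, and values were rounded to whole numbers for the tests. Whether the counting used strand is not stated, so overlapping antisense transcripts cannot be told apart.

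Each line was fitted with edgeR 4.0.16 (R 4.3.3; filterByExpr by group, TMM, quasi-likelihood F-test; 16 libraries, 12 residual degrees of freedom), and the lines were compared in 1 fit of 32 libraries and 14628 genes (24 residual degrees of freedom). Adjusted p-values are Benjamini-Hochberg over all genes tested, and genes were called under 0.05. Levels are CPM with TMM factors. An SE is the unshrunken log2 change, as a size, over the root of the F statistic, and a fold is the printed log2 change as a ratio. The code was tested on simulated data. Alternatives were DESeq2 1.42.0, its size factors in edgeR, limma voom 3.58.1, no filter on low counts, all 32 libraries in 1 fit, a replicate block and leaving out each library. The members and gene lists were chosen with earlier results of these data known. By rule, all 10 members are named, and from each other list at most the 3 called genes with the smallest adjusted p per comparison; the ligands TNFSF9, TNFSF10, TNFSF12, TNF and FASLG were added as partners of the members after values were seen. Some results of the caspase list are not reported here.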

Additional observations from a re-analysis of the deposited data

Results flagged for a closer look

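In 78 groups of 4 libraries, 3 held a library that stood apart from the other 3 (its gap to the nearest, as a share of the group's range, was past Dixon's critical value for 4); chance alone gives about 1 group in 20. TNFRSF10A was at 7.57 CPM in C4-2B siCTRL TG replicate 1, below the 9.92 to 10.3 CPM of its group. The same gene was at 24.6 CPM in LNCaP siMOCOS replicate 4, above 18.7 to 19.7 CPM. TNFRSF10D was at 21.7 CPM in C4-2B siCTRL replicate 2, below 26.9 to 27.6 CPM. Leaving out these libraries changed no call of either gene.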

How the results depend on the processing

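Of 40 called results for the 10 genes over all comparisons, 33 kept their call under every alternative, and of the 30 with TG 29 did. The 7 that lost it were FADD and TNFRSF12A with knockdown without TG and FADD with knockdown and TG in LNCaP, TNFRSF21 with knockdown and TG and TNFRSF12A with TG in knockdown cells in C4-2B, and CASP8 and TNFRSF9 between the lines (TNFRSF9 with limma voom, adjusted p = 0.0723). With TG, LNCaP siCTRL cells went from 9 genes called to 10 with DESeq2, DESeq2 size factors and no filter, by gaining CFLAR, and C4-2B knockdown cells from 6 to 5 with limma voom, by losing TNFRSF12A (adjusted p = 0.0579). The number moved by more than 1.5 times for knockdown and the line differences only. For C4-2B knockdown without TG it went from 1 to 3 in the fit of all 32 libraries, and for C4-2B knockdown with TG from 2 to 4 with DESeq2 (CFLAR and TNFRSF10D gained) and 1 with no filter. For LNCaP knockdown without TG it went from 2 to 0 with limma voom, 1 with no filter and 0 in the fit of all libraries, and with TG from 2 to 4 with limma voom (TNFRSF9 and CFLAR gained) and 1 in the fit of all libraries. Between the lines it went, with DESeq2, from 3 to 5 without TG, from 0 to 1 for the TG response (TNFRSF21) and from 0 to 1 for the knockdown response with TG (TNFRSF9, log2 1.77, adjusted p = 0.0305). Leaving out 1 library gave 1 to 2 and 1 to 3 for C4-2B knockdown without and with TG, 0 to 1 and 1 to 4 for LNCaP, and 2 to 5 between the lines without TG; the cause of these shifts was not tested. CFLAR with TG in LNCaP knockdown cells, not called, changed sign when 1 library was left out (log2 -0.0301 to 0.23; the low end is without siMOCOS TG replicate 3). Replicate numbers did not pair the siCTRL libraries (correlations of same-numbered deviations from -0.348 to 0.152 in C4-2B and -0.0658 to 0.210 in LNCaP); with a replicate block, TG called 6 genes (C4-2B) and 10 (LNCaP, CFLAR included, adjusted p = 0.00351), and with the siCTRL libraries alone and no block, an alternative chosen after seeing the data, 7 and 10. No paired analysis was possible for knockdown because its library numbers do not match those of siCTRL. For 45 of 140 results, under 1 SE and never called, no direction is claimed, a rule also chosen after seeing the data. TNFRSF9 without TG is limited by depth.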
